A study of Mus musculus with 6 samples.

Results

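The genes for the proteins of the cytosolic ribosome were examined in mouse pancreatic acini cultured ex vivo. They were taken by name from the deposited gene table as the protein-coding genes called Rps or Rpl with a number, the 3 Rplp genes and Rpsa, leaving out the S6 kinases and every name that contains -ps. The rule gave 87 genes of 56953, of which 35 carried small subunit names and 52 large subunit names. Of these, 83 passed the filter on low counts, 34 small and 49 large. The rule also took 4 genes that are not core subunits by their standard description, namely Rps19bp1, the nucleolar partner of Rps19, the gene copies Rps23rg1 and Rps27rt, and Rpl7l1, a relative of Rpl7 that acts in subunit assembly. Fau, which encodes a ribosomal protein fused to a ubiquitin-like protein, and Rack1 also have products that sit in the ribosome but lie outside the rule, and they are given beside the others.

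RNA was sequenced in bulk from 6 cultures at day 3 of the study's ex vivo assay of acinar-to-ductal metaplasia (ADM), the change of enzyme-secreting acinar cells into duct-like cells. The groups were wild-type acini (WT, labelled 10 and 11 weeks of age), acini of Dkk3-null mice (DD, 12 and 13 weeks) and DD acini with recombinant DKK3 in the medium (DD + rDKK3, 14 and 15 weeks), with 2 libraries each. WT 2 was labelled female and the other 5 male. DKK3 is a secreted glycoprotein, and the null allele is ubiquitous and lacks the exon that encodes its signal sequence, so all cells of the DD cultures carried it. The labelled ages differ between all groups, so age and group cannot be told apart, and no strain or batch was given in the labels. The 2 libraries of each group differ in labelled age, and those of WT also in sex, but the labels do not state which animal each culture came from. With 2 libraries a group, p-values measure the spread between these cultures only.

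The cytosolic ribosome joins a small subunit, which reads the mRNA, and a large subunit, which forms the peptide bond and passes the new chain through an exit tunnel. Each core protein is present in a fixed number of copies per ribosome, and their mRNAs as a class begin with a 5′ terminal oligopyrimidine (TOP) tract, a C followed by pyrimidines, through which the mTOR pathway and LARP1 control their translation and stability together. Acinar cells make large amounts of secreted enzymes and are rich in rough endoplasmic reticulum and ribosomes.

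The libraries held 12018473 to 19750401 counts. The targeted gene had 10 and 1 counts for WT, 11 and 9 for DD and 5 and 5 for DD + rDKK3, too few to check the genotype, and a gene count cannot show which exon was read. The list of 16 acinar markers summed to 143208 to 186745 CPM (counts scaled to 1000000 per library, on totals scaled by TMM, the trimmed mean of M values) in WT, 108944 to 122210 in DD and 118003 to 142254 in DD + rDKK3. The list of 14 fibroblast and stellate markers summed to 81.6 to 213, 125 to 1184 and 258 to 1267 CPM in the same order, and in DD and DD + rDKK3 its high library was replicate 2. In bulk RNA, fewer cells of a type and less RNA per cell cannot be told apart.

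The TOP tract is the sequence feature that the choice by name did not use, and the starts below show it at the transcripts' first bases. RefSeq starts on build GRCm38.p6 were found for 67 of the 87 genes. Of these, 14 (20.9%) began exactly with C and 4 further bases that were each C or T on the transcribed strand, 7 of 27 small and 7 of 40 large subunit genes, against 3.01% of the 27025 genes with a RefSeq start. A run of 8 or more bases that were each C or T lay within 20 bases of the start in 46.3% of the 67 and in 18.4% of all genes, and the search was on the transcribed strand only. Each sequence shows 15 bases before the annotated start and 15 from it, with the pyrimidine tract that opens the transcript in capitals. The genes were picked to show tracts of different length in both subunits and among the genes described further on.
Rps6: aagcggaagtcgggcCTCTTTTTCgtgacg
Rps18: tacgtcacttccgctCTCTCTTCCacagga
Rps27: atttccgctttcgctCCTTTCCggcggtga
Rps10: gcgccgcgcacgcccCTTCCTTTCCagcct
Rpl15: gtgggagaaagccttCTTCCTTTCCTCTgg
Rpl35: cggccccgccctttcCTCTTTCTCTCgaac
Rpl38: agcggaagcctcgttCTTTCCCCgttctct
Rplp2: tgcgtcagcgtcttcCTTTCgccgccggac
These lie at chr4:86857353-86857382 on the minus strand for Rps6, chr17:33955651-33955680 minus for Rps18, chr3:90213634-90213663 minus for Rps27, chr17:27635230-27635259 minus for Rps10, chr14:18270972-18271001 minus for Rpl15, chr2:39005117-39005146 minus for Rpl35, chr11:114668565-114668594 plus for Rpl38 and chr7:141447636-141447665 plus for Rplp2. The capitals run for 13 bases in Rpl15, 11 in Rpl35, 10 in Rps10, 9 in Rps6 and Rps18, 8 in Rpl38, 7 in Rps27 and 5 in Rplp2. Of 48 ribosome assembly factors with a RefSeq start, 0 began with such a tract, and of 15 other mRNAs of the TOP class 3 did. An annotated start a base away from the real one hides a tract, so these shares describe the annotation.

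The 87 genes together took 6.88% and 6.46% of all counts for WT, 5.44% and 7.17% for DD and 5.32% and 5.65% for DD + rDKK3. The DD libraries thus held the highest value of the 6 and a value below both WT libraries, and the groups DD and WT overlapped. The means were 6.67% ± 0.296 (SD, n = 2) for WT, 6.30% ± 1.22 (n = 2) for DD and 5.49% ± 0.234 (n = 2) for DD + rDKK3. With 2 against 2 libraries an exact permutation test cannot go below p = 0.33, and two-sided it gave 1 for DD against WT, 0.667 for DD + rDKK3 against DD and 0.33 for DD + rDKK3 against WT, each 1 after Benjamini-Hochberg adjustment over 12 tests. Counting error was small beside this spread, since the 95% Wilson interval of the share in WT 1 ran from 6.86% to 6.89%.

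**Figure D1:**
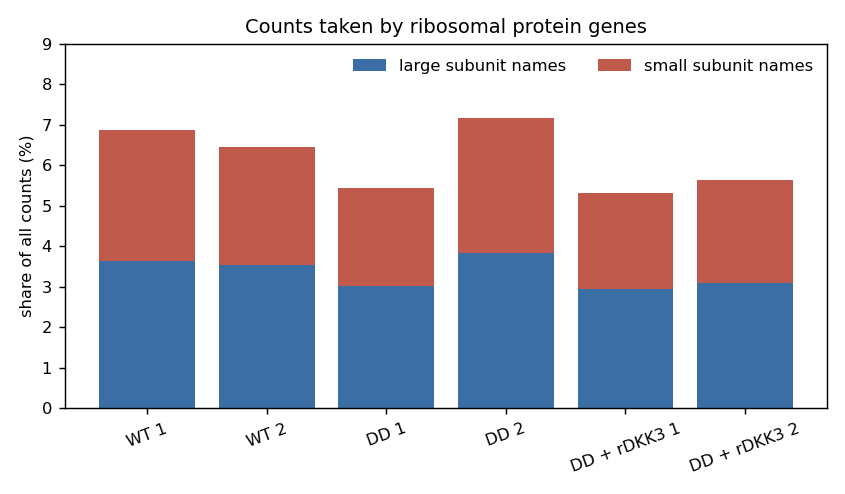
Share of all counts (%, linear axis from 0) held by large subunit (blue) and small subunit (red) genes in each of the 6 libraries, stacked. DD 2 reaches 7.17% and DD 1 5.44%, on either side of the WT libraries at 6.88% and 6.46%, while both DD + rDKK3 libraries reach 5.32% and 5.65%.

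Small subunit genes took 2.38% to 3.32% and large subunit genes 2.94% to 3.84% of counts across the libraries. The log2 ratio of the small to the large sum was -0.17 in WT 1, -0.27 in WT 2, -0.32 in DD 1, -0.21 in DD 2, -0.31 in DD + rDKK3 1 and -0.27 in DD + rDKK3 2. The difference in this ratio was -0.042 for DD against WT (exact permutation p = 0.667), -0.024 for DD + rDKK3 against DD (p = 1) and -0.066 for DD + rDKK3 against WT (p = 0.667). With 2 against 2 libraries none of these could pass, so they say nothing of whether the ratio was stable. It was highest in WT 1 and lowest in DD 1.

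On the log2 CPM scale, with each gene centred on its mean over the 6 libraries, the median of the 83 genes was 0.43 and 0.11 for WT, -0.27 and 0.17 for DD, and -0.23 and -0.19 for DD + rDKK3. The genes moved as a block. In WT 1, 81 of 83 lay above their own mean, in DD 2 again 81, in DD 1 only 1 and in DD + rDKK3 0 and 1. WT 1 held the highest level of 78 genes, DD 2 of 3 and WT 2 of 2. This order depends on the scale, since the TMM factor was 0.848 in WT 1 and 0.990 to 1.07 in the other libraries. By share of all counts DD 2 was highest, at 7.17% against 6.88% in WT 1. The orders of libraries given for single genes further on are in TMM-scaled CPM and carry the same limit. By the medians above, the replicates of WT and of DD lay at least as far apart as DD lay from WT. DD + rDKK3 lay farther from WT than that. Of the 83 genes, 81 were higher in WT 1 than in WT 2 and 82 in DD 2 than in DD 1. Between the groups, 68 were higher in DD 2 than in WT 2. The DD + rDKK3 libraries were the closest pair. Around the median profile the genes scattered little, with a residual SD of 0.172 in WT 1, 0.139 in DD 1 and 0.0743 to 0.0939 in the other 4 libraries.

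**Figure D2:**
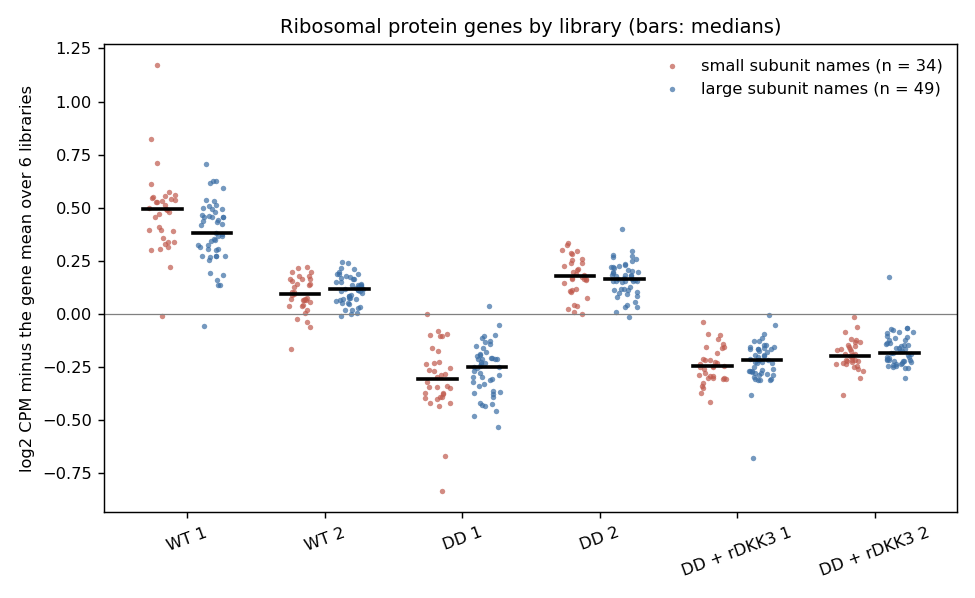
Each point is 1 of the 83 genes in 1 library, as log2 CPM minus the gene's mean over the 6 libraries, with small subunit names in red and large subunit names in blue, and black bars are medians. The medians over all 83 genes are 0.43 and 0.11 for WT, -0.27 and 0.17 for DD and -0.23 and -0.19 for DD + rDKK3, so DD 2 lies with the WT libraries and DD 1 with the DD + rDKK3 libraries.

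The comparison of DD with WT asks how acini without secreted DKK3 differed after 3 days. The median log2 fold change of the 83 genes was -0.32 against 0.016 over all 14738 genes tested, -0.35 for the small and -0.30 for the large subunit. The value was below 0 for 82 of 83 genes (98.8%), against 48.3% of all genes tested, and Rps3a1 was the exception. No gene passed. At an adjusted p under 0.05 (edgeR quasi-likelihood test, Benjamini-Hochberg over all genes tested) 0 of 83 were called, against 0.0407% of all genes tested. At an unadjusted p under 0.05, 1 gene was lower, against 3.99% of all genes, and 0 were higher, against 4.27%. DESeq2 and limma-voom also called 0 of the 83 after adjustment, against 80 and 8 of all 14738 genes. They had 5 and 2 of the 83 at an unadjusted p under 0.05, a cutoff at which their share of all genes is not given. Both DD libraries were below both WT libraries for 14 of 83 genes (16.9%), near the 19.7% of all genes, and above them for 0, against 18.1%. Scaled by library size alone, where the median of all genes tested moves to 0.22, the median of the 83 genes was -0.11, with 21 genes above 0. On that scale 2 genes did not overlap, and the share of all genes without overlap there is not given.

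The size of this difference hung on which replicate entered. The median was -0.56 without DD 2, -0.45 without WT 2, -0.13 without WT 1 and -0.078 without DD 1. Over all genes tested the medians of these fits were 0.00021, 0.053, 0.014 and 0.0048 in the same order.

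The comparison of DD + rDKK3 with DD asks what the added protein changed in the null acini. All 83 genes had a log2 fold change below 0, against 50.5% of all genes tested, with a median of -0.17 and a range from -0.37 to -0.019. No gene was called (edgeR, 0 of 83 against 0% of all genes tested), and 0 were at an unadjusted p under 0.05, where 1.38% of all genes were lower and 0.597% higher. DESeq2 and limma-voom called 0 as well, adjusted or not. Both DD + rDKK3 libraries were below both DD libraries for 8 genes (9.64%), against 14.4% of all genes, and above them for 0, against 15.1%. Without DD 2 the median was 0.072, with 68 of 83 genes above 0, and without DD 1 it was -0.42. The sign of the median thus depended on DD 2. Scaled by library size alone, the median was -0.21 against -0.044 over all genes tested. There 19 genes did not overlap, and the share of all genes without overlap on that scale is not given.

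The 4 smallest p-values of this comparison belonged to large subunit genes. Rpl13a, whose product leaves the ribosome in interferon-treated cells to silence inflammatory mRNAs, read 177 and 149 CPM in both WT libraries, 121 and 189 for DD, and 119 and 121 with rDKK3 added. Its DD libraries lay on either side of both WT libraries, and the log2 fold change was -0.37 ± 0.23 (SE, n = 2 each, edgeR adjusted p = 1.00, unadjusted 0.15). Rpl27 read 376 CPM in WT 1, 287 in WT 2, 225 in DD 1, 293 in DD 2, 213 in DD + rDKK3 1 and 221 in DD + rDKK3 2, a log2 fold change of -0.25 ± 0.21. For Rpl31 the same difference was -0.26 ± 0.24 and for Rplp1 -0.24 ± 0.22, with unadjusted p-values of 0.26, 0.30 and 0.30 in that order from edgeR.

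DD + rDKK3 against WT was the comparison with the widest separation. The median log2 fold change was -0.49 against 0.017 over all genes tested, -0.56 for the small and -0.46 for the large subunit, and 82 of 83 values were below 0, against 48.4% of all genes. In 80 of 83 genes (96.4%) both DD + rDKK3 libraries were below both WT libraries, against 27.1% of all genes tested, and in 0 they were above, against 27.9%. The exceptions were Rpl4, Rpl36al and Rps3a1. Still 0 of 83 genes were called at an adjusted p under 0.05 (edgeR, against 0.0475% of all genes tested). The lowest adjusted p was 0.32. At an unadjusted p under 0.05, 33 genes (39.8%) were lower, 15 small and 18 large, against 8% of all genes, and 0 were higher, against 7.34%. DESeq2 and limma-voom called 0 of the 83 after adjustment, against 74 and 3 of all 14738 genes. They had 58 and 36 of the 83 at an unadjusted p under 0.05, again without a share of all genes beside it. Scaled by library size alone, the median was -0.31 against 0.18 over all genes tested. There 74 genes did not overlap, and the share of all genes without overlap on that scale is not given. Without WT 1 the median was -0.32, and it was -0.46 without DD + rDKK3 1 and -0.50 without DD + rDKK3 2. The 3 comparisons share libraries, so their values are not independent of each other.

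**Figure D3:**
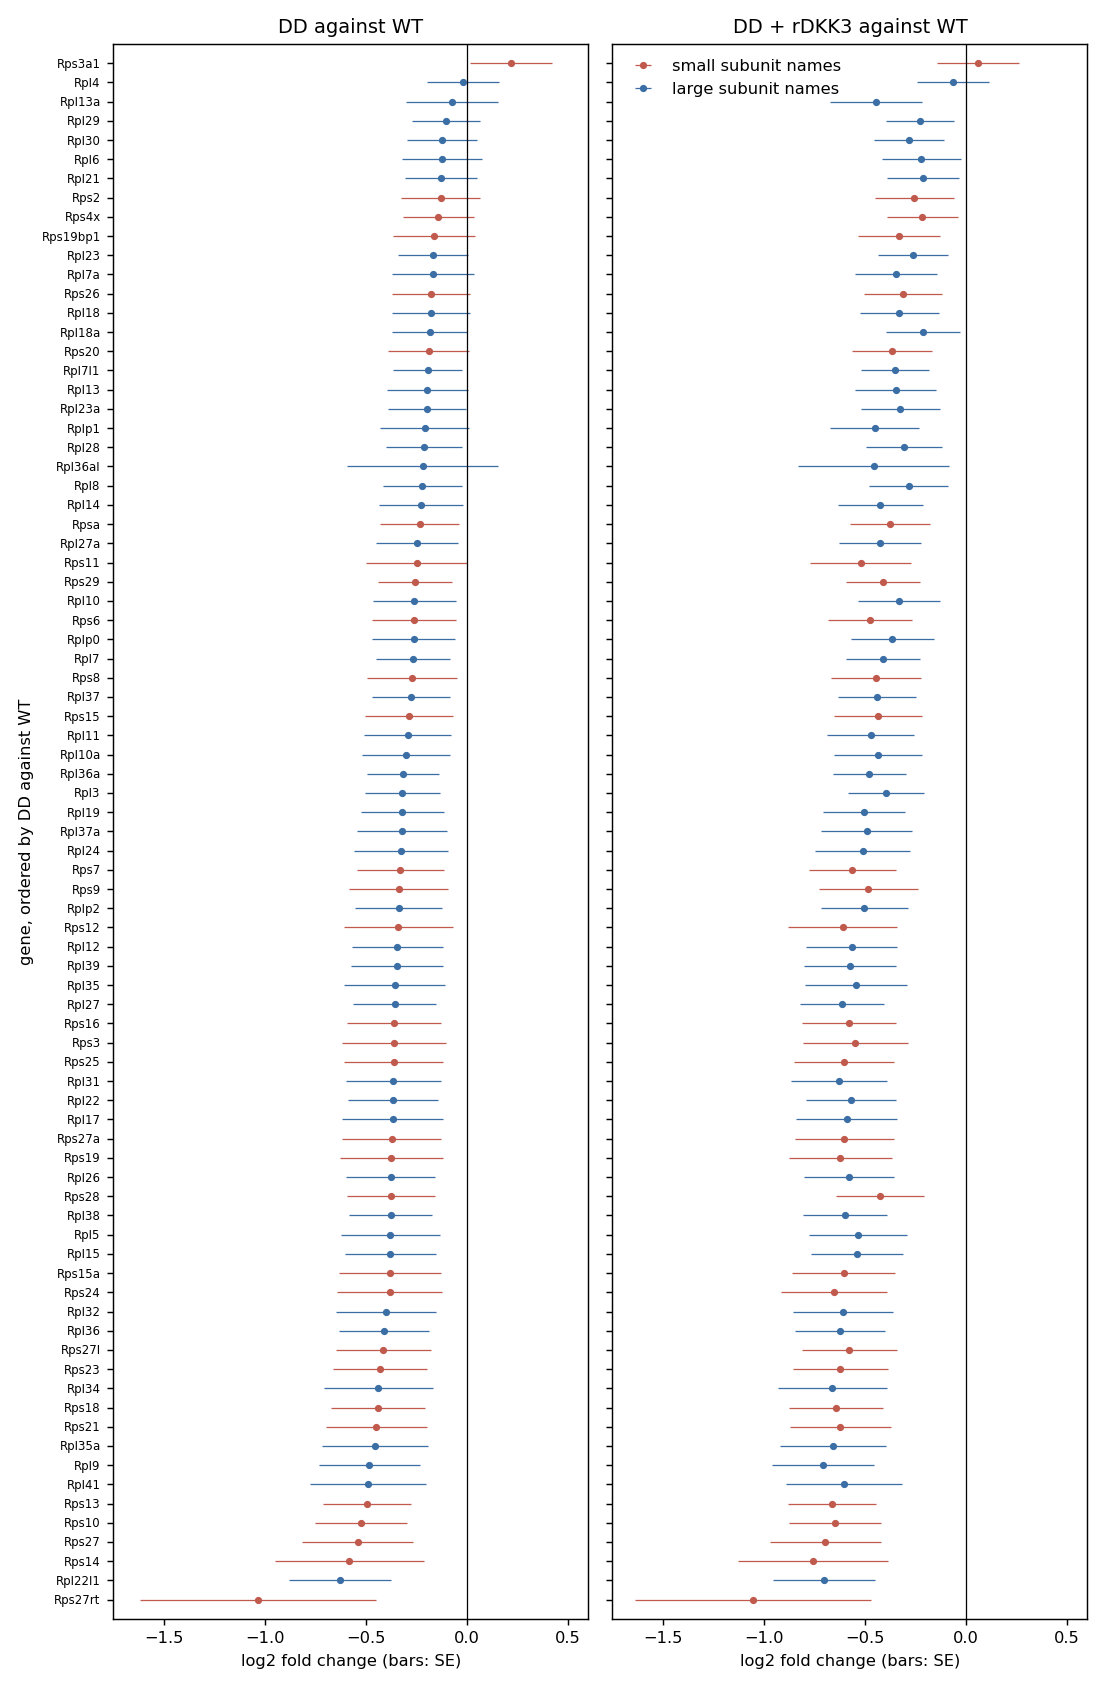
Log2 fold change (points) with its SE (bars) for 81 of the 83 genes, in order of DD against WT, for DD against WT (left) and DD + rDKK3 against WT (right), with small subunit names in red and large in blue. The points run from Rps27rt at the bottom to Rps3a1 at the top, which is above 0 in both panels, and 80 of the 81 lie below 0 in each panel.

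The acinar marker list had a median log2 fold change of -0.67 in DD against WT, 0.25 in DD + rDKK3 against DD and -0.34 in DD + rDKK3 against WT. The fibroblast list had 2.18, 0.21 and 2.34. The acinar list and the ribosomal protein genes thus had opposite signs in DD + rDKK3 against DD. This rested on DD 2, since the median of the ribosomal protein genes was 0.072 without that library. The acinar median without it is not given. The list of 10 macrophage markers summed to 245 and 196 CPM for WT, 142 and 329 for DD, and 155 and 245 for DD + rDKK3. In all 3 groups the summed fibroblast and macrophage markers were higher in the same replicate as the median of the ribosomal protein genes, while the acinar, ductal, endothelial and islet lists differed from that order in at least 1 group. This holds for the sums and not for every marker. Of the macrophage markers, C1qa and C1qb followed the order in all 3 groups. Cd14 went against it in WT and DD + rDKK3, and Cd68 in DD and DD + rDKK3. Within DD + rDKK3 the fibroblast markers differed by 1267 against 258 CPM, and the medians of the ribosomal protein genes were -0.23 and -0.19. The part of cell composition in the results was not tested.

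Among the small subunit genes, those on the side where mRNA enters and is decoded were Rps2, Rps3, Rps23 and Rps15, with a median log2 fold change of -0.32 in DD against WT and -0.49 in DD + rDKK3 against WT. Rps3, which lies at the entry site and also takes part in DNA repair, read 2983 and 2245 CPM in both WT libraries, 1595 and 2474 for DD, and 1786 and 1789 with rDKK3 added. Rps23, whose loop reaches the decoding centre, read 897 CPM in WT 1, 671 in WT 2, 481 in DD 1, 682 in DD 2, 513 in DD + rDKK3 1 and 505 in DD + rDKK3 2. Both genes had their highest value in WT 1 and their lowest in DD 1. Rps2 read 2046 and 1588 CPM for WT, 1652 and 1665 for DD, and 1547 and 1494 for DD + rDKK3, so that 5 of its libraries lay close together and WT 1 above them. Rps15, at the head of the subunit, read 1246 and 1008 CPM in both WT libraries, 779 and 1069.7 for DD, and 834 and 831 with rDKK3 added.

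Rps14, Rps26 and Rps28 belong to the side where mRNA leaves the subunit. Rps14, a gene whose loss underlies a form of myelodysplasia, was the most variable of the abundant ones. It read 3040.5 CPM in WT 1, 1796 in WT 2, 1079 in DD 1, 2152 in DD 2, 1288 in DD + rDKK3 1 and 1577 in DD + rDKK3 2. Within WT and within DD the replicates lay farther apart than the means of WT and DD did, and the log2 fold change of -0.58 ± 0.37 in DD against WT had an adjusted p of 0.61 (edgeR). Rps26, which contacts mRNA upstream of the start codon, had a narrower range and read 864 and 695 CPM for WT, 648 and 730.1 for DD, and 591 and 664 for DD + rDKK3. Rps28 read 368 and 251 CPM in both WT libraries, 217 and 259 for DD, and 231 and 229 with rDKK3 added, with WT 1 above all other libraries.

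Rps2, Rps3, Rps10 and Rps20 are the proteins ubiquitinated when ribosomes stall or collide, and their median log2 fold change came to -0.28 for DD against WT and -0.46 in DD + rDKK3 against WT. Rps20 read 1075 CPM in WT 1, 877 in WT 2, 765 in DD 1, 945 in DD 2, 734 in DD + rDKK3 1 and 780.0 in DD + rDKK3 2. Rps10 was measured at a far lower level, 17.8 and 12.9 CPM for WT, 9.70 and 11.6 for DD, and 10.7 and 8.87 for DD + rDKK3, with both WT libraries above all others. Its log2 fold change between DD and WT was -0.53 ± 0.23 and -0.65 ± 0.23 in DD + rDKK3 against WT (edgeR adjusted p = 0.59 and 0.32).

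Rps27, a zinc-finger protein of the small subunit whose start is printed above, read 1065 and 696 CPM in both WT libraries, 481 and 729 for DD, and 526 and 559.9 with rDKK3 added. The log2 fold change between DD and WT was -0.54 ± 0.27, and DD 2 lay between the WT libraries. Its copy Rps27rt was at the edge of detection, with 25 counts in WT 1, 15 in WT 2, 11 in DD 1, 20 in DD 2, 16 in DD + rDKK3 1 and 15 in DD + rDKK3 2, and the value of -1.04 ± 0.58 in DD against WT, the lowest of the 83, rests on these counts. Rps21 read 1034 and 767 CPM for WT, 527 and 793 for DD, and 567 and 603 for DD + rDKK3, and Rps6, the substrate of the S6 kinases downstream of mTOR, 754 and 669 CPM in both WT libraries, 497 and 690.4 for DD, and 501 and 522 with rDKK3 added. The nucleolar partner Rps19bp1 read 15.1 CPM in WT 1, 11.4 in WT 2, 11.0 in DD 1, 12.6 in DD 2, 10.6 in DD + rDKK3 1 and 10.5 in DD + rDKK3 2. Each of these genes had its highest value in WT 1.

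Of the large subunit genes, Rpl5 and Rpl11 form the 5S ribonucleoprotein with 5S rRNA, the particle that binds MDM2 and stabilises p53 when ribosome assembly fails. Rpl5 read 893 and 749 CPM for WT, 489 and 773 for DD, and 582 and 550.4 for DD + rDKK3 and Rpl11 790.3 and 667 CPM in both WT libraries, 494 and 694 for DD, and 521 and 529 with rDKK3 added. In both genes DD 2 stood between the WT values and DD 1 was the lowest of the 6. The median of the pair was -0.34 in DD against WT and -0.50 in DD + rDKK3 against WT.

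The P stalk, which recruits elongation factors, is built from Rplp0, Rplp1 and Rplp2 on a base that includes Rpl12. The 4 genes had medians of -0.30 in DD against WT, -0.19 in DD + rDKK3 against DD and -0.48 in DD + rDKK3 against WT. Rplp0 read 2514 CPM in WT 1, 2067 in WT 2, 1685 in DD 1, 2128 in DD 2, 1766 in DD + rDKK3 1 and 1791 in DD + rDKK3 2. Rplp1 read 1412 and 1045 CPM for WT, 937 and 1186 for DD, and 868 and 927 for DD + rDKK3 and Rplp2 1101 and 811 CPM in both WT libraries, 675 and 837 for DD, and 673 and 676 with rDKK3 added. The last pair occurs as dimers on the stalk, and in both the DD + rDKK3 libraries were below the WT libraries. Rpl12 read 1117 CPM in WT 1, 900.5 in WT 2, 655 in DD 1, 932 in DD 2, 668 in DD + rDKK3 1 and 695 in DD + rDKK3 2.

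The walls of the peptide exit tunnel are formed in part by Rpl4, Rpl17 and Rpl39. Rpl17 read 1440.0 and 1275 CPM for WT, 799 and 1305 for DD, and 881 and 921 for DD + rDKK3 and Rpl39 255 and 210.1 CPM in both WT libraries, 145 and 221 for DD, and 150.4 and 162 with rDKK3 added. Rpl4 stood apart from both. It read 1817 CPM in WT 1, 2048 in WT 2, 1940.3 in DD 1, 1874 in DD 2, 1888 in DD + rDKK3 1 and 1809 in DD + rDKK3 2, a range in which WT 2 was highest and WT 1 next to lowest. Its log2 fold change between DD and WT was -0.019 ± 0.18 and -0.064 ± 0.18 in DD + rDKK3 against WT, and scaled by library size alone these were 0.18 and 0.094. By the root mean square distance from the median profile of the 83 genes, Rpl4 was among the 4 farthest, with Rps27rt, Rps3a1 and Rps14. At the rim of the tunnel, where nascent chain factors dock, Rpl19, Rpl23a, Rpl26, Rpl31 and Rpl35 had medians of -0.36 and -0.55 in the same comparisons. Rpl26 read 1005 and 836 CPM for WT, 586 and 832 for DD, and 601 and 632 for DD + rDKK3, with both DD libraries below both WT libraries. Rpl31 read 416 and 315 CPM in both WT libraries, 231 and 336 for DD, and 220.2 and 253 with rDKK3 added, Rpl35 545 CPM in WT 1, 445 in WT 2, 293 in DD 1, 479 in DD 2, 339 in DD + rDKK3 1 and 339 in DD + rDKK3 2, Rpl19 695 and 572 CPM for WT, 437 and 578 for DD, and 435 and 458 for DD + rDKK3 and Rpl23a 558 and 469 CPM in both WT libraries, 391 and 503 for DD, and 403 and 416 with rDKK3 added. All 4 had WT 1 highest and a DD 2 value between those of WT.

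In DD + rDKK3 against WT the smallest p-values belonged to Rps13, Rpl27, Rpl38 and Rps10. Rpl38, which in mouse embryos is needed for the translation of Hox mRNAs, read 406 CPM in WT 1, 329 in WT 2, 239.6 in DD 1, 325 in DD 2, 234 in DD + rDKK3 1 and 250.0 in DD + rDKK3 2. Both DD + rDKK3 libraries were below both WT libraries, and the log2 fold change was -0.60 ± 0.21 (edgeR adjusted p = 0.32, unadjusted 0.021). For Rpl27 it was -0.61 ± 0.21 (edgeR adjusted p = 0.32, unadjusted 0.019). Rps13 is described with its copy further on.

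Several ribosomal proteins have a second gene. Rpl22l1, the paralog of Rpl22 that is better known from development and from tumours, was called in some fits only. It read 300.2 and 207 CPM for WT, 132 and 196 for DD, and 153 and 158 for DD + rDKK3, so that both WT libraries lay above the other 4. Against WT, the log2 fold change in DD was -0.63 ± 0.25 (edgeR adjusted p = 0.59, unadjusted 0.038) and that in DD + rDKK3 -0.70 ± 0.25 (adjusted p = 0.32, unadjusted 0.024). The second of these passed without the low-count filter (edgeR adjusted p = 0.045) and with the replicate numbers of WT crossed as a block, a fit added after seeing the data (adjusted p = 0.047). Those fits called 788 of 26506 and 566 of 14738 genes in that comparison, against 7 of 14738 in the main fit. A call there is thus less particular to this gene. Rpl22 itself read 686 and 522 CPM in both WT libraries, 395 and 541 for DD, and 398 and 415 with rDKK3 added.

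The ratio of Rpl22l1 to Rpl22, which does not depend on scaling, was 0.438 in WT 1, 0.397 in WT 2, 0.334 in DD 1, 0.363 in DD 2, 0.385 in DD + rDKK3 1 and 0.382 in DD + rDKK3 2. It was lower in both DD libraries than in all others. As a log2 ratio it differed by -0.26 in DD against WT, 0.14 in DD + rDKK3 against DD and -0.12 in DD + rDKK3 against WT, each without overlap and each at the smallest exact permutation p that 2 against 2 allows, 0.33, which is 1 after adjustment over 15 tests of 5 pairs. Rps27l, a p53 target, stood to Rps27 as 0.483 and 0.557 for WT, 0.570 and 0.552 for DD, and 0.583 and 0.532 for DD + rDKK3. Rpl7l1 stood to Rpl7 in ratios of 0.0905 to 0.112. Rpl36al stood to Rpl36a at 0.0141 to 0.0233 and the processed copy Rps4l to Rps4x at 0.0159 to 0.0209. In each of these 4 pairs the WT replicates lay farther apart than the means of DD and WT.

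The 3 paralogs known for restricted expression did not pass the filter. Rpl10l, a testis gene, had 0 counts in all 6 libraries. Rpl39l, another gene of male germ cells, had 1 count, in DD 2, and Rpl3l, the striated muscle form of Rpl3, had 1 count in DD 1 and 1 in DD + rDKK3 2. Rps23rg1, the gene copy of Rps23, had 2 and 5 counts for WT, 4 and 0 for DD and 6 and 2 with rDKK3 added. At these depths a count of 0 allows up to 3 counts per library, for counting error only.

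Levels between genes were compared as CPM per kilobase of coding sequence, averaged over the 6 libraries, since the annotated transcripts of these genes differ widely in their untranslated parts. The median was 1462 over the 83 genes, 1682 for the small and 1234 for the large subunit. The genes between the quartiles ran from 938 to 1966. The highest large subunit genes were Rpl41, which encodes the shortest of these proteins, at 7924, Rplp1 at 3107, Rpl32 at 2777 and Rpl9 at 2318. The highest small subunit genes were Rps14 at 4022, Rps3 at 2943, Rps21 at 2871 and Rps27 at 2683. Short genes gain on this scale when reads from the untranslated parts are counted, and the size of that gain was not tested.

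The 2 lowest small subunit names were Rps27rt at 4.54 and Rps10 at 24.1 CPM per kilobase, and the 2 lowest large subunit names were Rpl36al at 14.6 and Rpl24 at 47.1. Rps19bp1, at 27.7, was also below Rpl24. Rps10, Rpl24 and, at 239.9, Rpl13a are core subunits present in every ribosome. Their exons overlap another annotated gene on the same strand over 38.8% (Rps10), 71.5% (Rpl24) and 45.3% (Rpl13a) of their bases in GENCODE M39, and union counting drops pairs that hit 2 genes. How much of the low level comes from that was not tested. Rpl24, which forms a bridge between the subunits, read 29.4 and 23.9 CPM in both WT libraries, 16.5 and 25.9 for DD, and 18.9 and 18.4 with rDKK3 added.

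Members of different length did not move by the same amount. Split by coding length into 28 short, 27 middle and 28 long genes, the median log2 fold change came to -0.37, -0.33 and -0.26 for DD against WT, -0.18, -0.18 and -0.15 in DD + rDKK3 against DD and -0.58, -0.52 and -0.41 in DD + rDKK3 against WT. Across the 83 genes Pearson's r of fold change with coding length was 0.44, 0.27 and 0.50, and Spearman's rho 0.42, 0.23 and 0.44, a description without a test since all points share the same libraries. Relative to the median profile the short genes were 0.062 higher and the long genes 0.10 lower in WT 1. In DD 1 the same medians were -0.057 and 0.028.

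Rps3a1, a small subunit protein near the mRNA exit and a contact of initiation factors, was the only gene above 0 against WT, with 0.22 ± 0.20 in DD and 0.058 ± 0.20 in DD + rDKK3 (log2, SE, edgeR adjusted p = 0.69 and 0.90). It read 832 CPM in WT 1, 747 in WT 2, 779 in DD 1, 1057 in DD 2, 816 in DD + rDKK3 1 and 828 in DD + rDKK3 2. It has near-identical processed copies in the genome. Whether reads were exchanged between it and the copies was not tested, so its own count is uncertain. The copies Rps3a2 (GRCm39 chr14:88360453-88361244, minus strand) and Rps3a3 (chr13:108807137-108807931, plus strand) together had 2307 and 2788 counts for WT, 20 and 25 for DD, and 19 and 15 for DD + rDKK3, which is 21.4% and 20.8% of the sum of the 3 genes in WT and 0.0973% to 0.139% in the other libraries. The WT libraries thus stood apart from the other 4 in the copies. With no strain given for either genotype, the null allele and the genetic background cannot be told apart here or in the other comparisons with WT. Added together, the 3 genes gave 1058 and 943 CPM in both WT libraries, 780.3 and 1058 for DD, and 817 and 829 with rDKK3 added. With pseudogenes named after a member added to it, the log2 fold change of Rps3a1 was -0.12 in DD against WT and -0.28 in DD + rDKK3 against WT, and all 83 genes were below 0 in both comparisons.

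Along 795 aligned bases, which begin at the start codon of Rps3a1 (base 134 of its transcript), Rps3a3 differed at 9 positions (98.9% identity) and 49.6% of all windows of 50 bases, the read length, were identical. For Rps3a2 the values were 4 differences in 792 bases and 76.7%. The coding stretch below spans bases 334 to 393 of the Rps3a1 transcript and 201 to 260 of Rps3a3. A single read within it can be told apart only if it covers a base in capitals. Reads were sequenced in pairs, and the windows of 50 bases leave out what the mate covers. The capitals mark the substitutions T349C and T393C, which give the base of Rps3a1, the position in its transcript and the base of the copy.
Rps3a1: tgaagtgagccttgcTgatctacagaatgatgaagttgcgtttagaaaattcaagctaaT
Rps3a3: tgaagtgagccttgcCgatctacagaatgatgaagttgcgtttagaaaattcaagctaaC

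Rps13 showed the opposite arrangement. Its copy Rps13-ps1 (GRCm39 chr8:87774317-87774854, plus strand) had 4 counts in WT 1, 1 in WT 2, 1666 in DD 1, 1941 in DD 2, 1688 in DD + rDKK3 1 and 1659 in DD + rDKK3 2, so that it was near absent in WT and took 15.8% to 17.0% of the sum in the other libraries. The 2 sequences differ at 2 of 522 aligned bases, T499C and A517G counted along the Rps13 transcript, and 85.6% of windows of 50 bases were identical. Rps13 alone read 788 and 625 CPM for WT, 421 and 582 for DD, and 435 and 457 for DD + rDKK3, with all DD and DD + rDKK3 libraries below both WT libraries, and its log2 fold change was -0.49 ± 0.22 in DD and -0.66 ± 0.22 in DD + rDKK3 against WT (edgeR adjusted p = 0.59 and 0.32). Summed with its copy it read 789 and 625 CPM in both WT libraries, 500.3 and 696 for DD, and 524 and 546 with rDKK3 added, and DD 2 then lay between the WT libraries. For these genes, the fold change depends on whether copies are counted with them.

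**Figure D4:**
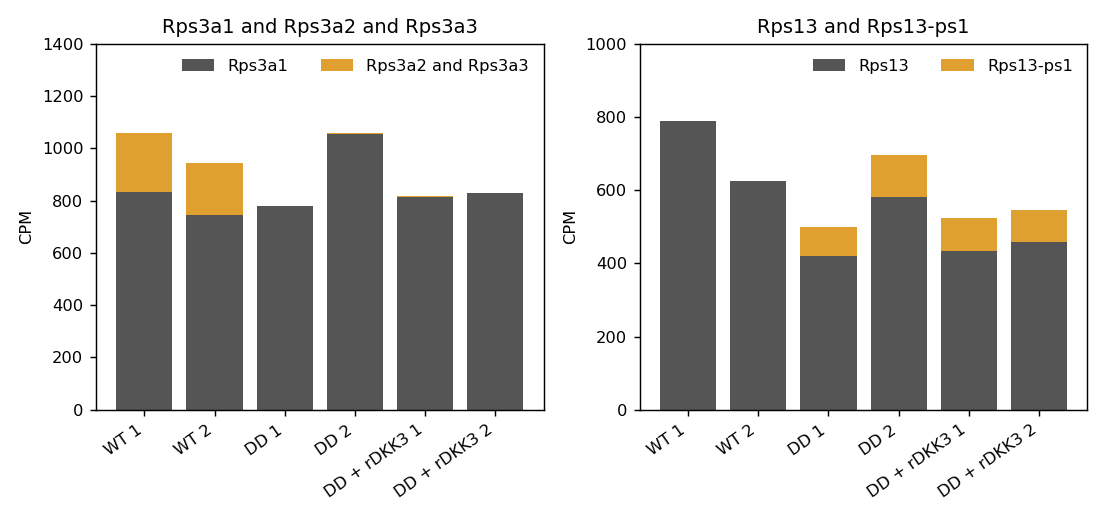
CPM of Rps3a1 (left) and Rps13 (right) in grey with their processed copies stacked in yellow, in each of the 6 libraries, on linear axes from 0. The copies of Rps3a1 add 227 and 196 CPM in WT and at most 1.47 in the other libraries, whereas the copy of Rps13 adds 78.8 to 114 CPM in DD and DD + rDKK3 and at most 0.393 in WT.

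Over the whole family the copies held few counts. By sequence, 884 annotated pseudogenes matched 79 of the 87 genes best, and 97 of them, belonging to 63 genes, passed the filter. They held 0.799 and 0.761 counts per 100 counts of the ribosomal protein genes in WT and 0.602 to 0.622 in the other libraries. With these counts added to their parents the median log2 fold changes were -0.32, -0.17 and -0.50 in DD against WT, in the treated against the untreated DD cultures and in DD + rDKK3 against WT.

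Fau and Rack1, outside the naming rule, lay close to the members. Fau, fused to ribosomal protein S30, read 911 CPM in WT 1, 664 in WT 2, 456 in DD 1, 668 in DD 2, 504 in DD + rDKK3 1 and 515 in DD + rDKK3 2. Rack1, a scaffold on the head of the small subunit, read 2446 and 2015 CPM for WT, 1616 and 2036 for DD, and 1662 and 1643 for DD + rDKK3. Both had DD + rDKK3 libraries below both WT libraries, and 0 of the 2 passed the test.

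Other mRNAs of the TOP class, 21 elongation and initiation factors and related genes, had medians of -0.21, -0.078 and -0.34 in DD against WT, in the treated against the untreated DD cultures and in DD + rDKK3 against WT, with 17, 16 and 18 of 21 below 0. The first was -0.0071 by library size alone, -0.069 without WT 1 and -0.088 without DD 1, the second 0.037 without DD 2, so that its sign depended on that library, and -0.21 without DD 1, and the third -0.16 by library size alone and -0.16 without WT 1. Eef1b2, a nucleotide exchange factor of elongation, read 1162 and 1046 CPM in both WT libraries, 753 and 1131 for DD, and 776 and 812 with rDKK3 added, and Tpt1, a small protein long used as a TOP model, 3499 CPM in WT 1, 2865 in WT 2, 2132 in DD 1, 2954 in DD 2, 2291 in DD + rDKK3 1 and 2453 in DD + rDKK3 2. Eef2, the translocase, differed from them and read 4309 and 3954 CPM for WT, 5238 and 4037 for DD, and 4942 and 5038 for DD + rDKK3, with DD 1 and both DD + rDKK3 libraries highest. The 7 snoRNA host genes, whose spliced transcripts are also of the TOP class, had medians of -0.34, -0.13 and -0.62, with 7 of 7 below 0 in each comparison. Here the first was -0.063 without DD 1 and -0.56 without DD 2, and the second 0.084 without DD 2 and -0.41 without DD 1. Snhg1 read 189.6 and 129 CPM in both WT libraries, 80.5 and 131 for DD, and 105 and 87.9 with rDKK3 added and Gas5 244 CPM in WT 1, 213 in WT 2, 168 in DD 1, 222 in DD 2, 174 in DD + rDKK3 1 and 182 in DD + rDKK3 2, in the same order of libraries within WT and within DD as the ribosomal protein genes.

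Genes that build ribosomes but do not stay in them were examined in the same way. Of 56 assembly factors, 35 were above 0 in DD against WT, with medians of 0.056, -0.093 and -0.038 in the 3 comparisons, and of 14 RNA polymerase I and rDNA genes tested 6 were above 0, with medians of -0.16, -0.027 and -0.067. Scaled by library size alone the assembly factors were at 0.26 and 0.13 against WT in DD and DD + rDKK3, and the polymerase I list at 0.066 and 0.11. In DD against WT the polymerase I median was 0.043 without WT 1 and 0.025 without DD 1, and in DD + rDKK3 against WT the assembly factors were at 0.038 without WT 2, so that these signs changed too. Nucleolin, the abundant nucleolar protein encoded by Ncl, read 399 and 425 CPM for WT, 536 and 395 for DD, and 500.3 and 448 for DD + rDKK3. The 10 genes for kinases and RNA-binding proteins that act on TOP mRNAs, with Myc, had medians of 0.11, 0.078 and 0.29. Larp1, the TOP-binding protein, read 289 and 353 CPM in both WT libraries, 406 and 296 for DD, and 477 and 448 with rDKK3 added, and Myc 55.5 CPM in WT 1, 60.7 in WT 2, 59.8 in DD 1, 59.1 in DD 2, 61.2 in DD + rDKK3 1 and 60.4 in DD + rDKK3 2, nearly level in the 6 libraries. In all these lists 0 genes were called in any comparison (edgeR). The differences between lists were not tested.

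**Figure D5:**
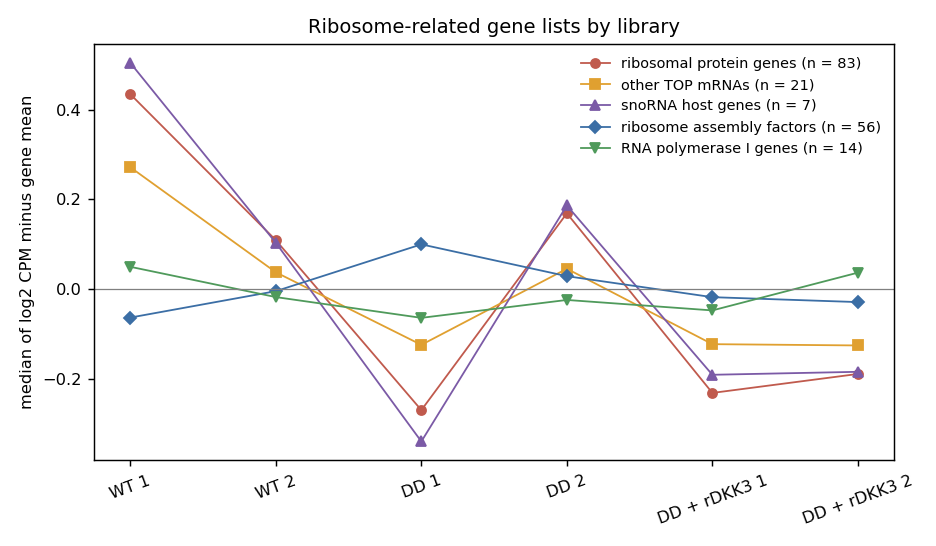
Median over the genes of each list of log2 CPM minus the gene's mean, by library, for the 83 ribosomal protein genes (red), 21 other TOP mRNAs (yellow), 7 snoRNA host genes (purple), 56 assembly factors (blue) and 14 RNA polymerase I genes (green), with lines only to guide the eye. The snoRNA hosts run from 0.50 in WT 1 to -0.34 in DD 1, next to the ribosomal protein genes at 0.43 and -0.27, while the assembly factors run from -0.064 in WT 1 to 0.10 in DD 1.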

How the data were processed

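Bulk RNA-seq libraries were made from 2 WT, 2 DD and 2 DD + rDKK3 acinar cultures at day 3. Per their methods, the authors aligned strand-specific paired reads with STAR 2.7.9a to GRCm39, counted pairs over exons of the basic GENCODE M32 annotation in union mode without secondary alignments, and deposited raw counts per gene for each library. Union counting leaves out pairs that hit 2 genes, and reads that fit a pseudogene equally well go to either copy or to neither. Spike-in rows (92, all at 0) were left out.

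From these counts, genes were filtered with filterByExpr (minimum count 10, minimum total 15), which left 14738, scaled by TMM and fitted over all 6 libraries with the quasi-likelihood test of edgeR 4.0.16, two-sided, with Benjamini-Hochberg adjustment over all genes and a call threshold of 0.05 on the adjusted p. It had 3 residual and 4.63 prior degrees of freedom and was tested on simulated data. The simulated counts had less spread than these libraries and larger planted changes than the member medians, so that test does not show the power here. CPM used TMM-scaled totals, and log2 CPM a prior count of 2. Replicates of a group differed by more than sampling noise (chi-square per degree of freedom 23.4 to 66.9). DESeq2 1.42.0 and limma 3.58.1 were alternatives. Coding lengths, exon overlaps and copies came from GENCODE M39 on GRCm39 (blastn 2.17.0, at least 90% identity over 50% of the pseudogene) and starts from RefSeq on GRCm38.p6. In place of transcript length, coding length was used.

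Members and gene lists were chosen with earlier results of these data known. Members named with values were the 4 with the smallest p per comparison and direction, the 4 highest and 2 lowest per coding kilobase in each subunit, paralog pairs, members of the role lists (a few are not reported here), the 4 with profiles farthest from the median, members with a named pseudogene that passed the filter, those that failed the filter and Rps19bp1. The genes named from the other lists were chosen after their values were seen.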

Additional observations from a re-analysis of the deposited data

How the results depend on the processing

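Under DESeq2, limma-voom, RLE factors, TMM factors without members and acinar markers, a stricter filter and the replicate block, 0 members were called in all 3 comparisons and the sign of the member median did not change. Over all genes tested, the deviations of same-numbered libraries correlated at r = -0.39 between WT and DD, -0.25 between WT and DD + rDKK3 and 0.65 between DD and DD + rDKK3 (0.20 over members). The titles use the names DD1 and DD2 both without and with rDKK3. The labelled ages of those libraries differ, at 12 and 13 weeks without it and 14 and 15 with it. Since the labels do not say what a number marks, the main fit did not take the numbers as pairs. With the replicate block the medians were -0.33, -0.17 and -0.50 for DD against WT, for DD + rDKK3 against DD and for DD + rDKK3 against WT. At an unadjusted p under 0.05 that fit had 0, 0 and 22 members, and the share of all genes at that cutoff is not given. With the numbers of WT crossed, a fit added after seeing the data, 0, 0 and 1 of 83 members were called. Over all 14738 genes that fit called 296, 29 and 566. Without the low-count filter 1 of 86 members was called in DD + rDKK3 against WT, and 788 of 26506 genes. In both fits it was Rpl22l1 (edgeR adjusted p = 0.045 and 0.047, the filterless fit given before the crossed one). Leaving out each library in turn, the member median ran over -0.56 to -0.078 in DD against WT, -0.42 to 0.072 in DD + rDKK3 against DD and -0.66 to -0.32 in DD + rDKK3 against WT. The difference in share of counts ran over -1.23 to 0.50, -1.68 to 0.048 and -1.39 to -0.970 percentage points, and that in the small to large log2 ratio over -0.095 to 0.010, -0.077 to 0.028 and -0.12 to -0.014. For genes the ranges were -0.087 to 0.075 (Rpl4, DD against WT), -0.13 to 0.031 (Rpl4, DD + rDKK3 against WT), -0.017 to 0.45 and -0.011 to 0.16 (Rps3a1, same comparisons) and -0.53 to 0.031 (Rpl31, DD + rDKK3 against DD). Rpl4 was 0.18 and 0.094 in those comparisons by library size alone and 0.034 in DD against WT without the filter. Rps3a1 was -0.12 and -0.28 with named and -0.12 and -0.29 with sequence-matched pseudogenes added. Paralog log2 ratios in DD against WT ranged over -0.080 to 0.20 (Rpl7l1), -0.041 to 0.23 (Rpl36al) and -0.18 to 0.22 (Rps4l). 

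List medians, in the same order of comparisons, ran over -0.25 to -0.069, -0.21 to 0.037 and -0.44 to -0.16 for the other TOP mRNAs, -0.56 to -0.063, -0.41 to 0.084 and -0.70 to -0.37 for snoRNA hosts, 0.045 to 0.11, -0.13 to -0.077 and -0.036 to 0.038 for assembly factors, -0.26 to 0.043, -0.043 to 0.013 and -0.16 to 0.047 for RNA polymerase I genes and 0.023 to 0.25, 0.0016 to 0.13 and 0.20 to 0.31 for the regulators when each library was left out. By library size alone they were -0.0071 and -0.16 against WT for the TOP mRNAs in DD and DD + rDKK3, 0.26, -0.14 and 0.13 for assembly factors, 0.066 and 0.11 against WT for RNA polymerase I genes and 0.31 and 0.45 against WT for the regulators. Members without overlap numbered 2, 19 and 74 on that scale, where the share of all genes is not given. Without the filter the assembly factors were at 0.11 and 0.0087 and the RNA polymerase I genes at -0.10 and -0.020 against WT in DD and DD + rDKK3. At transcript starts, a run of 8 pyrimidines was found in 46.3% of members against 20.9% with an exact TOP start. Where a sign changed, the cause was not tested. Depth limits the value of Rps27rt, which rests on 11 to 25 counts a library, and was not tested for other members.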
